A study of Mus musculus with 10 samples.

Results

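Interferon-inducible GTPases were compared between hepatocytes that lacked Nrf2, p65, or both. The group held 10 genes, found by their symbols (Gm4841, Iigp1, Tgtp1, Ifi47, Irgm1, Irgm2, Igtp, Gbp2, Gbp3, and Gbp7) among the 21939 genes of the count table. All 10 were among the 13641 genes with a summed count of 10 or more, which were tested, and all 10 would have passed this filter without the p65 KO libraries. They had been chosen because they were higher in p65 KO than in control and lower again in the double knockout. Their values in p65 KO and in the double knockout are therefore given as a description without a test, also where calls are counted. Only the Nrf2 KO libraries had no part in that pattern, but earlier results of these data were known, so they were not held out. These GTPases are a cell-autonomous arm of the response to interferons, mostly to interferon gamma, which signals through its receptor and the kinases Jak1 and Jak2. The immunity-related GTPases (IRG) assemble on the vacuole of intracellular pathogens, and 3 regulators, Irgm1, Irgm2, and Igtp, keep the effector GTPases off the host's own membranes. The guanylate-binding proteins (GBP) act on the same vacuoles and on bacterial surfaces, where they open the way to inflammasome activation.

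RNA from freshly isolated hepatocytes of 10 male mice aged 8 to 9 weeks was sequenced as poly-A selected, stranded libraries, 1 per mouse. All animals, controls included, had received AAV8Cre 12 days earlier, an adeno-associated virus that expresses Cre recombinase from a promoter active in hepatocytes only. The 3 control mice were C57BL/6J animals without floxed genes. The 2 mice of the Nrf2 KO group carried floxed Nrf2 (gene Nfe2l2, an activator of antioxidant genes), the 2 mice of the p65 KO group carried floxed p65 (gene Rela, a subunit of NF-κB), and the 3 mice of the double knockout (DKO) carried both. Only the floxed genes of hepatocytes are deleted in this model, the genotype is that of the hepatocytes and not of other liver cells, and the cells had been enriched by low-speed and Percoll centrifugation, not sorted. With 2 or 3 mice per group, the spread within a group is poorly known. In such bulk samples, more cells of a type and more RNA per cell cannot be told apart.

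The libraries held between 33707165 and 49897382 counts, and values below are normalized counts, meaning counts divided by library size after TMM scaling. The counts of Nfe2l2 and Rela include all exons, so they do not show whether an exon was deleted: Nfe2l2 was between 3433.5 and 5239.5 in the 5 Nrf2 KO and DKO libraries and between 1990.2 and 2318 in the other 5, and Rela was between 1034 and 1488.5 throughout. Nqo1, a target of Nrf2, was between 52.6 and 103.0 in the 5 libraries labelled as lacking Nrf2 and between 181 and 217.5 in the other 5. Saa3, a target of p65, was between 14.9 and 32.6 in the 5 libraries labelled as lacking p65 and between 92.4 and 230 in the other 5, and no library fell on the wrong side for either gene, both of which were looked up after other values had been seen. The 10 hepatocyte markers summed to 3501351 to 4912985 in control and 4072663 and 4352701 in p65 KO. Markers of several other liver cell types were higher in p65 KO, but not those of all. The 5 cholangiocyte markers summed to 268.5 to 392 in control and 347 and 444 in p65 KO, with 0 called. The 4 erythroid markers summed to 51.9 to 182 in control, 35.9 and 94.5 in p65 KO, and 164 to 1141 in DKO, where replicate 1 was highest. The 12 Kupffer cell markers summed to 368 to 957 in control, 254 and 814 in Nrf2 KO, 1715 to 2905 in DKO, and 4516 and 6190.0 in p65 KO. Of these, 12 of 12 were called higher in p65 KO than in control, beside 5.05% of all genes tested. The 9 sinusoidal endothelial markers summed to 784 to 1774, 970.0 and 2066, 1880.0 to 3000.4, and 3783 and 5425 in the same order (9 of 9 called), and the 8 stellate cell markers to 241 to 467, 191 and 363, 433 to 1144.5, and 2375 and 2464 (6 of 8 called). The 15 markers of T and NK cells, the main producers of interferon gamma, summed to 26.1 to 46.2, 70.3 and 74.2, 80.1 to 174, and 48.2 and 55.9. Of the 10 that could be tested, 0 were called between p65 KO and control, and Cd3d was at 0 in all libraries except DKO replicates 1 and 2. Cd4 was the highest of the 15 in every library. Cd4 was at 23.2, 34.4, and 14.01 in control, 62.3 and 58.2 in Nrf2 KO, 138.9, 75.2, and 64.1 in DKO, and 17.3 and 22.7 in p65 KO. Of the others, all at or under 9.47, Cd3g, Cd8a, Lck, Nkg7, Gzma, Klrb1c, and Ccl5 were higher in both p65 KO libraries than in all control libraries. Prf1 was lower, and the rest overlapped. At such counts, a change of T and NK cells in p65 KO cannot be judged. The part of these cells in the values of the GTPases was not tested.

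**Figure D1:**
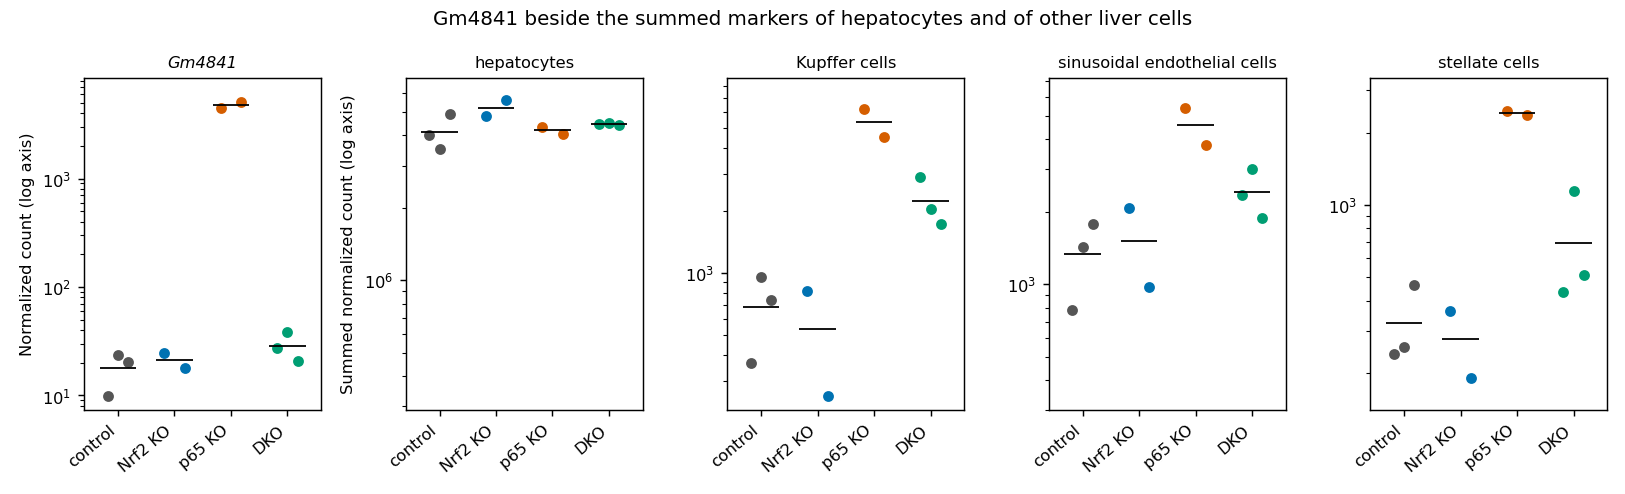
Normalized counts of Gm4841 and summed normalized counts of the marker lists of hepatocytes, Kupffer cells, sinusoidal endothelial cells, and stellate cells on log axes, with 1 point per library and a line at the group mean. The markers of the 3 other cell types are highest in p65 KO and the Kupffer cell sums of all 3 DKO libraries lie above all control libraries, whereas Gm4841 in DKO overlaps with control.

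Of the 10 genes, 8 lie on chromosomes 3 and 11 of the mouse genome (GRCm39, GENCODE M39). Irgm1 (chr11:48752795-48763164), Tgtp1 (chr11:48876154-48884999), Ifi47 (chr11:48967412-48987813), Igtp (chr11:58089840-58098417), and Irgm2 (chr11:58090444-58113615) are on chromosome 11, Gbp7 (chr3:142236044-142255910), Gbp3 (chr3:142265731-142278979), and Gbp2 (chr3:142326349-142343779) on chromosome 3. Igtp and Irgm2 overlap on the same strand.

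Promoter windows from RefSeq (GRCm38.p6, 250 bases before to 50 after the transcription start) were found for 8 of the 10 genes, in 9 windows. They were searched on both strands for the core of the interferon-stimulated response element (ISRE, GAAA, 2 bases of any kind, GAAA), which binds interferon regulatory factors, for the core of the gamma-activated site (GAS, TTCNNNGAA), an element of genes induced by interferon gamma, and for the NF-κB consensus. An ISRE core was present in 7 of the 8 genes and in 3.44% of all 32851 promoter windows, and a GAS core in 4 of the 8 and in 8.3% of all windows. The NF-κB consensus was present in none of the 9 windows and in 4.51% of all windows. In Tgtp1, Irgm2, and Igtp the GAS core was followed after 2 bases by the ISRE core, an arrangement looked for after the windows had been seen and held by 5 of all windows, those of Tgtp2 and Gm12185, both IRG genes, being the others. Ifi47 had none of these motifs in its window. A match of letters is a description and not a binding site. The windows of the 3 genes with the joined motifs, of Gbp2, and of Ifi47 are shown to let these be compared, in lower case with ISRE and GAS cores in capitals.
Igtp (chr11:58199306-58199605, plus strand): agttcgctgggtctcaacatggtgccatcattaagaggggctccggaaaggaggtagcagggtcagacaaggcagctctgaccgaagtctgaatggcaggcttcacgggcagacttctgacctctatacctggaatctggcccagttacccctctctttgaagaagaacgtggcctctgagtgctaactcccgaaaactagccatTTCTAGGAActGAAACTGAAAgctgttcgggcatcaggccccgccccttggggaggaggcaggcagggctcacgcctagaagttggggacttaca
Irgm2 (chr11:58214727-58215026, plus strand): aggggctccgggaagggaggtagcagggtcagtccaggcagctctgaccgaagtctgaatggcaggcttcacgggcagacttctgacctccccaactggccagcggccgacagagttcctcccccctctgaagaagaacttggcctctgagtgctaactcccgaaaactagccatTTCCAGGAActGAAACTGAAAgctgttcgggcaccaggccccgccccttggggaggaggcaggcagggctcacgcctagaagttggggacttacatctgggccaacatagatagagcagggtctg
Tgtp1 (chr11:48992197-48992496, minus strand): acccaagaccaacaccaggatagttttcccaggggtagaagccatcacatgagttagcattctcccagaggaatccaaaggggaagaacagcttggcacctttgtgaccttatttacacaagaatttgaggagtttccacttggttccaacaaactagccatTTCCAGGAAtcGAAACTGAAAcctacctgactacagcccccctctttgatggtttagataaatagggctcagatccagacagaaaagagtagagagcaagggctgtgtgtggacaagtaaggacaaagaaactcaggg
Gbp2 (chr3:142620413-142620712, plus strand): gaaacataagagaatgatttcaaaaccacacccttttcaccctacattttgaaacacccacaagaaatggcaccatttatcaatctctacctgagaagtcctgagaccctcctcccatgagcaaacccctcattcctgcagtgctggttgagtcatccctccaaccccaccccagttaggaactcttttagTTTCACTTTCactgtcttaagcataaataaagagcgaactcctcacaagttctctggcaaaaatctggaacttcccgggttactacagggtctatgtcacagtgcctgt
Ifi47 (chr11:49076337-49076636, plus strand): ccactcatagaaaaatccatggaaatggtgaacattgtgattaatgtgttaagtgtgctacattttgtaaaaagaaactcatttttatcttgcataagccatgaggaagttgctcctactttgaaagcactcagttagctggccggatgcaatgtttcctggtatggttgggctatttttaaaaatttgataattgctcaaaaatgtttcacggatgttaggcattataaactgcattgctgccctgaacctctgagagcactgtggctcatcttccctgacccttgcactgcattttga
The ISRE core began 34 bases before the start in Igtp, 64 in Irgm2, 77 in Tgtp1, and 59 in Gbp2, where it lies on the other strand. The GAS core began 45, 75, and 88 bases before the start in Igtp, Irgm2, and Tgtp1.

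Gm4841 (chr18:60401377-60406349 in GRCm39), an IRG gene near Iigp1 whose protein has been little studied, was almost silent in 3 genotypes and abundant in p65 KO. Its normalized count was 9.94, 23.6, and 20.6 in control, 24.7 and 17.8 in Nrf2 KO, 27.4, 38.1, and 20.6 in DKO, and 4480.2 and 5104 in p65 KO. The 2 p65 KO libraries lay far above the other 8, and the control, Nrf2 KO, and DKO libraries overlapped. The mean was 18.03 ± 7.17 in control (SD, n = 3), 21.2 ± 4.9 in Nrf2 KO (n = 2), 4792 ± 441 in p65 KO (n = 2), and 28.7 ± 8.85 in DKO (n = 3), a ratio of 266 between p65 KO and control. The log2 fold change was 8.02 ± 0.27 (SE) between p65 KO and control, -7.38 ± 0.26 between DKO and p65 KO, and 0.65 ± 0.31 between DKO and control. Of its transcript sequence, 23.2% of the 31-base words also occurred in transcripts of other genes, mainly of BC023105 (not analysed here), so that some reads could have been assigned to either gene.

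A pair of neighbours of Gm4841 on chromosome 18 did not share this pattern. Iigp1c (chr18:60345048-60381504), chosen after its values had been seen, was at 3957, 3113, and 3551 in control, 3737 and 3739 in Nrf2 KO, 3478, 3785, and 3723 in DKO, and 2574 and 2508 in p65 KO, lowest in the 2 p65 KO libraries. Its log2 fold change was -0.48 ± 0.12, adjusted p = 0.0219, between p65 KO and control and 0.53 ± 0.12, adjusted p = 0.0343, between DKO and p65 KO by edgeR's quasi-likelihood test with Benjamini-Hochberg adjustment, below the fold threshold. F830016B08Rik (chr18:60426445-60438660), a further IRG gene between Gm4841 and Iigp1, had a log2 fold change of -0.02 ± 0.39, adjusted p = 0.976 in edgeR, between p65 KO and control and was highest in DKO replicate 2, at 646.

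Iigp1 (Irga6, chr18:60506680-60525706), an effector IRG that coats pathogen vacuoles, was the most abundant of the 10 genes in every genotype. Its normalized count was 14673, 12102, and 13444 in control, 13144 and 14308 in Nrf2 KO, 13318, 18845, and 9603 in DKO, and 20145 and 22480.5 in p65 KO. Both p65 KO libraries were above all others, and DKO replicate 2 came close while DKO replicate 3 was the lowest of all 10 libraries. The difference was small, with a log2 fold change of 0.67 ± 0.22 between p65 KO and control and -0.61 ± 0.22 between DKO and p65 KO.

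Tgtp1 (Irgb6), an IRG effector first found in T cells, was at 277, 427, and 196 in control, 319 and 280.5 in Nrf2 KO, 526, 1357, and 132 in DKO, and 3224 and 3149 in p65 KO. The p65 KO libraries were above all others, and the DKO libraries ranged from below every control library (replicate 3) to above all of them (replicates 1 and 2). The log2 fold change was 3.41 ± 0.65 between p65 KO and control, -2.25 ± 0.63 between DKO and p65 KO, and 1.16 ± 0.59 between DKO and control. Tgtp1 shared 81.6% of its 31-base words with Tgtp2, so the split between the 2 genes is uncertain. With their counts summed, the log2 fold change between p65 KO and control was 3.42 and that between DKO and p65 KO was -2.23.

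Ifi47 (Irgd), also an IRG effector, was at 1197, 823, and 761 in control, 748 and 834 in Nrf2 KO, 1143, 847, and 564 in DKO, and 1102 and 1144 in p65 KO. Control replicate 1 was the highest library, so p65 KO overlapped with control, and DKO overlapped with both. Its log2 fold change was 0.28 ± 0.26 between p65 KO and control and -0.40 ± 0.26 between DKO and p65 KO, both within 2 standard errors of 0.

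Among the IRGM regulators, Irgm2 and Igtp differed more than Irgm1. Irgm2, a regulator on the Golgi apparatus, was at 1581, 1580.3, and 1513 in control, 1987 and 1936 in Nrf2 KO, 2338, 3219, and 1767 in DKO, and 5646 and 6009 in p65 KO. The 3 control libraries were nearly equal, both p65 KO libraries stood above all others, and all 3 DKO libraries lay between control and p65 KO. Its log2 fold change was 1.90 ± 0.19 between p65 KO and control, -1.26 ± 0.19 between DKO and p65 KO, and 0.65 ± 0.17 between DKO and control. Igtp (Irgm3), which sits on lipid droplets and the endoplasmic reticulum, was at 1206, 861, and 999 in control, 1258 and 1267 in Nrf2 KO, 1540.0, 2666, and 1325 in DKO, and 4547 and 5581 in p65 KO. As for Irgm2, the DKO libraries lay above all control and below both p65 KO libraries. Its log2 fold change was 2.31 ± 0.25, -1.46 ± 0.25, and 0.85 ± 0.23 in the same 3 comparisons. The 2 genes overlap and shared 10.2% (Irgm2) and 7.87% (Igtp) of their 31-base words, and with summed counts, an analysis added after the data had been seen, these values were 2.08, -1.35, and 0.73. Irgm1, which is needed for autophagy of mycobacteria and for stem cell maintenance, was at 2403, 1688, and 1616 in control, 2006 and 2013 in Nrf2 KO, 2005, 1958, and 1559.6 in DKO, and 2995 and 3346 in p65 KO. Both p65 KO libraries were above all others, and the DKO libraries overlapped with control, with a log2 fold change of 0.74 ± 0.17 between p65 KO and control and -0.78 ± 0.17 between DKO and p65 KO.

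Gbp2, Gbp3, and Gbp7 all had low counts per kilobase, and all were highest in p65 KO. Gbp2, which promotes the lysis of pathogen vacuoles, was at 47.5, 36.4, and 46.7 in control, 61.3 and 45.3 in Nrf2 KO, 29.4, 52.7, and 26.3 in DKO, and 169.7 and 182 in p65 KO. DKO replicates 1 and 3 were below all control libraries and replicate 2 was above them. Its log2 fold change was 2.01 ± 0.32 between p65 KO and control and -2.28 ± 0.33 between DKO and p65 KO. Gbp3, also a GBP of the chromosome 3 cluster, was at 80.6, 85.5, and 67.2 in control, 134 and 152 in Nrf2 KO, 105, 171, and 51.5 in DKO, and 284 and 317 in p65 KO. Both Nrf2 KO libraries were above all control libraries, and the DKO libraries spanned the range from below control to above Nrf2 KO. Its log2 fold change was 1.95 ± 0.36 between p65 KO and control and -1.46 ± 0.36 between DKO and p65 KO. Gbp7, linked to the oxidative defence of macrophages, was at 311, 403, and 367 in control, 430.1 and 406 in Nrf2 KO, 436, 755, and 310.1 in DKO, and 1170.3 and 1047 in p65 KO. DKO replicate 2 stood between the p65 KO libraries and the rest, and the log2 fold change was 1.62 ± 0.28 between p65 KO and control and -1.15 ± 0.28 between DKO and p65 KO.

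**Figure D2:**
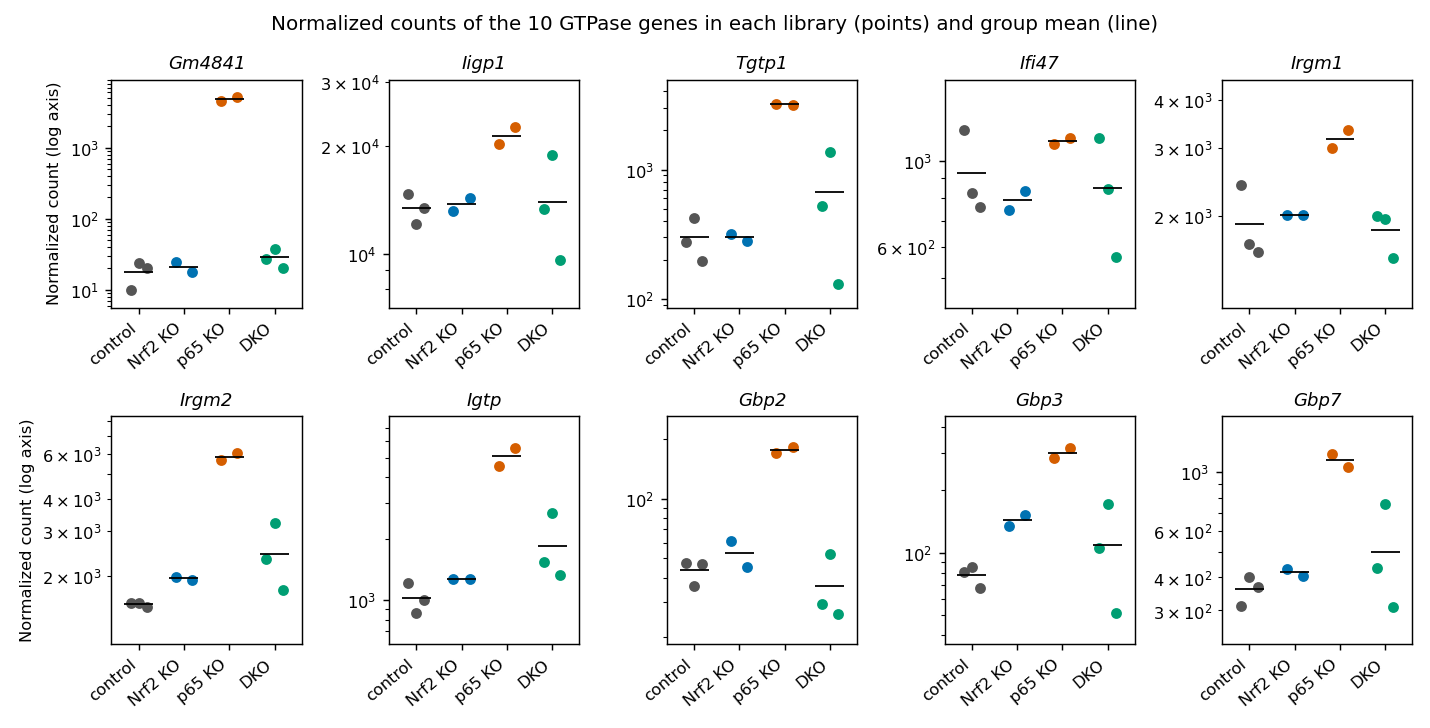
Normalized counts of each of the 10 GTPase genes on a log axis, with 1 point per library (3 control, 2 Nrf2 KO, 2 p65 KO, 3 DKO) and a line at the group mean. The p65 KO libraries are above all others for every gene except Ifi47, and the DKO libraries spread more widely than those of the other groups for most genes.

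Across the group, the log2 fold change between p65 KO and control was positive for 10 of 10 genes, between 0.28 and 8.02 with a median of 1.93, beside a median of 0.00 over all genes tested. Called genes, those with an adjusted p no higher than 0.05 together with a change of 1 or more on the log2 scale, included 7 of the 10 (5.05% of all genes tested were called higher). Iigp1, Irgm1, and Ifi47 were not called. The p65 KO libraries were above all control libraries for 9 of 10 genes, beside 26.2% of all genes. Between DKO and p65 KO, the log2 fold change was negative for 10 of 10 genes, between -7.38 and -0.40 with a median of -1.36 (0.00 over all genes), 6 of 10 were called lower (0.968% of all genes, and 1.78% in either direction), and the groups did not overlap for 9 of 10 (20.1%). Neither the calls nor the counts in these 2 comparisons are a test of the 10 genes, because the genes were chosen by them. Tgtp1 was called in the first of these comparisons but not in the second. The number called lower also depended on the libraries. It fell without either p65 KO library, was 3 without DKO replicate 1, and was 7 without DKO replicate 2.

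**Figure D3:**
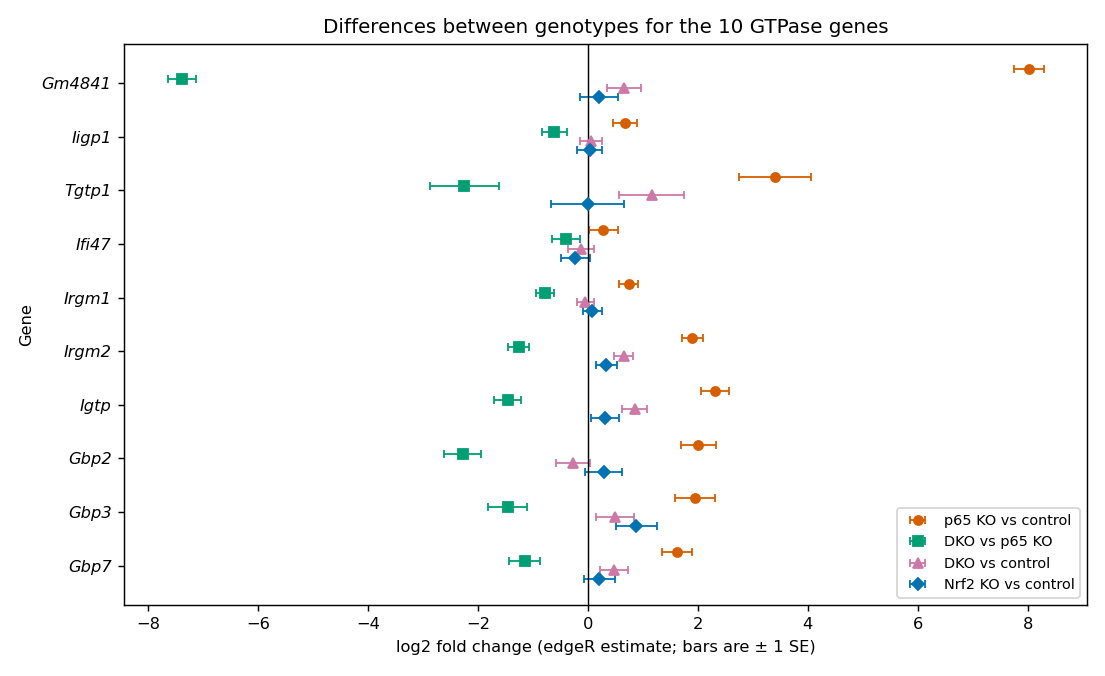
Log2 fold changes of the 10 GTPase genes estimated by edgeR for 4 comparisons, with bars of 1 standard error in each direction. Gm4841 stands apart with 8.02 between p65 KO and control and -7.38 between DKO and p65 KO, and the Nrf2 KO and DKO values against control lie between -0.27 and 1.16.

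The difference to control seen in p65 KO was nearly absent in DKO for some genes and partly kept for others. Expressed as the share of the difference between p65 KO and control that was left between DKO and control, it was 0.224% for Gm4841, 6.52% for Iigp1, 12.9% for Tgtp1, 14.04% for Gbp3, 18.7% for Gbp7, 20.3% for Igtp, and 20.7% for Irgm2, and the means of Gbp2, Irgm1, and Ifi47 in DKO were below those of control. The median over the 10 genes was 9.70%. It differed between the DKO mice, with medians of 9.06%, 37.8%, and -9.28% in replicates 1, 2, and 3. Between DKO and control the log2 fold change was between -0.27 and 1.16, with a median of 0.48 (0.02 over all genes), and 0 of 10 genes were called by edgeR, DESeq2, or limma (2.38% of all genes by edgeR). Without DKO replicate 3, Igtp and Tgtp1 were called higher and the median was 0.78, and without DKO replicate 2 the median was 0.03. The DKO libraries were above all control libraries for Irgm2 and Igtp only, 2 of 10 genes, beside 13.2% of all genes. Both groups had entered the choice of the genes, so neither these counts nor the lack of calls is a test. The interaction, the difference between DKO and Nrf2 KO minus that between p65 KO and control, was between -7.58 (Gm4841) and -0.17 (Ifi47), with a median of -1.68 (0.01 over all genes). It rests in part on the p65 KO, control, and DKO libraries by which the genes had been chosen, so it is given without a test. These 4 comparisons share libraries, so their values are not independent of each other.

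The DKO mice differed from each other in a common order. DKO replicate 3 was the lowest of the 3 DKO libraries for 10 of 10 genes (32.4% of all genes), and replicate 2 the highest for 8 of 10 (33% of all genes), the exceptions being Ifi47 and Irgm1, where replicate 1 was highest. The ratio of the highest to the lowest DKO library was between 1.29 (Irgm1) and 10.3 (Tgtp1) with a median of 2.01, compared with medians of 1.35 among control, 1.102 among Nrf2 KO, and 1.12 among p65 KO libraries (fewer libraries make a small ratio more likely). The summed sinusoidal endothelial markers had the same order, with 3000.4 in DKO replicate 2, 2344 in replicate 1, and 1880.0 in replicate 3. So did the summed hepatocyte markers over a narrow range (4500353, 4468647, and 4440279). Single markers did not all follow the sums. Stab2 and Clec4g were highest in DKO replicate 1, and Alb, the most abundant hepatocyte marker, was highest in replicate 3 (3232010, against 3184320 in replicate 2 and 3150640 in replicate 1). The Kupffer cell markers had another order, with a sum of 2905 in DKO replicate 1, 2041 in replicate 2, and 1715 in replicate 3. The stellate cell markers were highest in replicate 2, at 1144.5 against 433 in replicate 1 and 514 in replicate 3. The part of these cells in the order of the GTPases was not tested.

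With Nrf2 alone deleted, no gene of the group was called. The control libraries had entered the choice of the genes. The Nrf2 KO libraries had no part in the pattern used, but earlier results of these data were known, so this comparison is not independent of the choice. Between Nrf2 KO and control, the log2 fold change was between -0.23 and 0.88 with a median of 0.21, beside 0.00 over all genes, and 0 of 10 genes were called in edgeR's quasi-likelihood test (0.55% of all genes were). The adjusted p was between 0.478 and 1.0 with the Benjamini-Hochberg method, 1 of 10 had an unadjusted p under 0.05, and 0 of 10 were called with DESeq2 or limma. Gbp3 had the largest difference, 0.88 ± 0.37, with a mean of 143 ± 12.4 in Nrf2 KO (n = 2) and 77.8 ± 9.47 in control (n = 3), and an edgeR adjusted p of 0.478. Irgm2 (0.33 ± 0.19), Igtp (0.31 ± 0.26), and Gbp7 (0.21 ± 0.29) were the other genes whose Nrf2 KO libraries were both above all control libraries, 4 of 10 in all, beside 14.8% of all genes. The standard errors, 0.17 to 0.66, set the size of a difference that could have been seen.

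DKO was also compared with Nrf2 KO, which sets the joint loss of Nrf2 and p65 beside the loss of Nrf2 alone. Here the DKO libraries had entered the choice of the genes, so the values are a description and not a test. The log2 fold change was between -0.55 (Gbp2) and 1.16 (Tgtp1), with a median of 0.18 and 0.01 over all genes. By edgeR, DESeq2, or limma 0 of 10 genes were called (0.433% of all genes by edgeR). Because the genes had been chosen as low in DKO, this lack of calls shows no lack of an effect. Igtp was above both Nrf2 KO libraries in all 3 DKO libraries and Irgm1 below them, and the other 8 genes overlapped.

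Levels of different genes can be compared per length, here as normalized counts per kilobase of the longest annotated transcript. In control, Iigp1 was highest at 4117 ± 395 (SD, n = 3), followed by Irgm1 (496 ± 114), Ifi47 (482 ± 122), and Irgm2 (435 ± 10.9), which did not differ beyond their spread. Igtp (277 ± 47), Tgtp1 (104 ± 40.6), Gbp7 (62.1 ± 7.96), Gbp3 (19.03 ± 2.32), and Gbp2 (16.99 ± 2.42) came next, Gbp3 and Gbp2 within their spread, and Gm4841 was the lowest of the 10 at 6.34 ± 2.52. In p65 KO, Gm4841 had moved to the second place at 1685 ± 155 (n = 2), below Iigp1 (6546 ± 507) and within the spread of Irgm2 (1628 ± 71.8), with Igtp next (1373 ± 198). In DKO and in Nrf2 KO it was again the lowest of the 10, at 10.1 ± 3.11 (n = 3) and 7.47 ± 1.72 (n = 2). The order within the GBP genes, Gbp7 above Gbp3 above Gbp2, was the same in all 4 genotypes by the means, although Gbp3 and Gbp2 did not differ beyond their spread in control, p65 KO, and DKO.

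Other interferon-inducible GTPases, from a list of 27 of which 17 could be tested, were examined beside the group. Of these, 9 were called higher and 0 lower (5.05% and 1.54% of all genes), and the median log2 fold change was 2.28. Between DKO and p65 KO, 2 of 17 were called lower (0.968% of all genes) and the median was -1.66. The number called in p65 KO fell to 3 without p65 KO replicate 1, to 4 without control replicate 3, and to 5 without control replicate 1, and the number called between DKO and p65 KO was between 0 and 4 when single libraries were left out, with 0 without either p65 KO library, 1 without DKO replicate 1, and 4 without DKO replicate 2.

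Among the GBP genes, Gbp9, Gbp10, Gbp2b, Gbp4, and Gbp5 rose in p65 KO. Gbp9 was at 39.8, 27.5, and 46.7 in control, 71.2 and 62.2 in Nrf2 KO, 28.4, 50.5, and 33.2 in DKO, and 145 and 146 in p65 KO, and the p65 KO libraries were the highest, followed by both Nrf2 KO libraries, while control and DKO overlapped. It rose by 1.93 ± 0.32 on the log2 scale (edgeR adjusted p = 0.00477) and fell between p65 KO and DKO (-1.96 ± 0.32, adjusted p = 0.0121), the first call held under 19 and the second under 16 of 19 alternatives, the second being lost without either p65 KO library. Gbp10, which shares 74.9% of its 31-base words with other genes, rose by 1.38 ± 0.32 (adjusted p = 0.0189 in edgeR) and fell again in DKO (-1.80 ± 0.32, adjusted p = 0.0183), both calls being lost without either p65 KO library, the first also without control replicate 2 or 3, and the second also without DKO replicate 1 or with only the 2 compared groups in the fit, and DKO replicate 3 was the lowest of all libraries at 176. Gbp2b (formerly Gbp1) was at 1.1, 5.9, and 4.67 in control, 6.92 and 1.62 in Nrf2 KO, 53.6, 19.1, and 27.5 in DKO, and 78.2 and 72.8 in p65 KO. It rose in p65 KO (4.21 ± 0.69, adjusted p = 0.0045 in edgeR) and was the only one of the 17 also called between DKO and control (3.04 ± 0.66, adjusted p = 0.0256), a call that was lost without any one of the control libraries or without DKO replicate 1. Gbp5, which promotes NLRP3 inflammasome assembly, was at 0, 0, and 0.934 in control, 5.93 and 2.42 in Nrf2 KO, 5.26, 11.2, and 3.43 in DKO, and 47.8 and 32.1 in p65 KO. It was at or under 3 counts in every control library and at least 13.2-fold higher in p65 KO, taking 3 counts per library as the floor (edgeR adjusted p = 0.00327). Gbp4 rose by 2.28 ± 0.63 (edgeR adjusted p = 0.0356), a call that was lost without control replicate 1, control replicate 3, or p65 KO replicate 1. Gbp6 (log2 fold change 0.42 ± 0.29, adjusted p = 0.346 in edgeR) and Gbp8 (1.88 ± 0.65, adjusted p = 0.0742) were not called.

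Of the IRG genes outside the group, Tgtp2, the near copy of Tgtp1, was at 12.2, 18.7, and 23.4 in control, 38.6 and 33.1 in Nrf2 KO, 39.97, 110.0, and 14.9 in DKO, and 279 and 171 in p65 KO. It rose in p65 KO (3.62 ± 0.63, adjusted p = 0.00571 in edgeR, lost without p65 KO replicate 1), and DKO replicate 2 lay between the p65 KO libraries and the rest, as for Tgtp1. 9930111J21Rik2 rose from between 2.21 and 11.8 in control to 79.2 and 35.9 in p65 KO (edgeR adjusted p = 0.0214), a call that was lost without control replicate 1, control replicate 3, or p65 KO replicate 1. Gm5431 (edgeR log2 fold change 2.39 ± 0.75, adjusted p = 0.0554), Gm12185 (3.39 ± 1.39, adjusted p = 0.122), and 9930111J21Rik1 (3.82 ± 1.26, adjusted p = 0.0639), all near the floor of counting in control, were not called. Of the 31-base words of 9930111J21Rik2, 69.9% also occurred in other genes, as did 88.5% of those of 9930111J21Rik1. The share was 51.8% for Gm5431 and 30.2% for Gm12185, so the split of counts between these genes is uncertain. Irgq, an IRG-like gene, was at -0.31 ± 0.18, adjusted p = 0.262 in edgeR, and Irgc, a gene of the testis, was at 0 in all libraries.

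The large GTPases of the GVIN family rose too. Gvin2 was at 173, 45.2, and 134 in control, 109.7 and 77.6 in Nrf2 KO, 489, 2236, and 52.6 in DKO, and 2409 and 1774 in p65 KO. Its values in p65 KO and in DKO replicate 2 were similar, and those of DKO replicate 3 were within control. It rose by 4.16 ± 1.02 between p65 KO and control (edgeR adjusted p = 0.0227), a call that was lost without p65 KO replicate 1 or without any one control library. Gvin1 was likewise high in p65 KO and in DKO replicate 2 (1.65 ± 0.50, adjusted p = 0.0483 in edgeR), a call that held under 8 of 19 alternatives only. Gvin1 and Gvin2 share 99.7% and 98.7% of their 31-base words with other genes, so that their separate values are uncertain. Mx1, a GTPase induced by type I and III but not type II interferon, was at 48.6, 75.7, and 40.2 in control, 61.3 and 65.5 in Nrf2 KO, 37.9, 65.1, and 73.2 in DKO, and 70.1 and 38.8 in p65 KO, with overlap between all groups (-0.01 ± 0.41, adjusted p = 0.989 between p65 KO and control in edgeR).

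**Figure D4:**
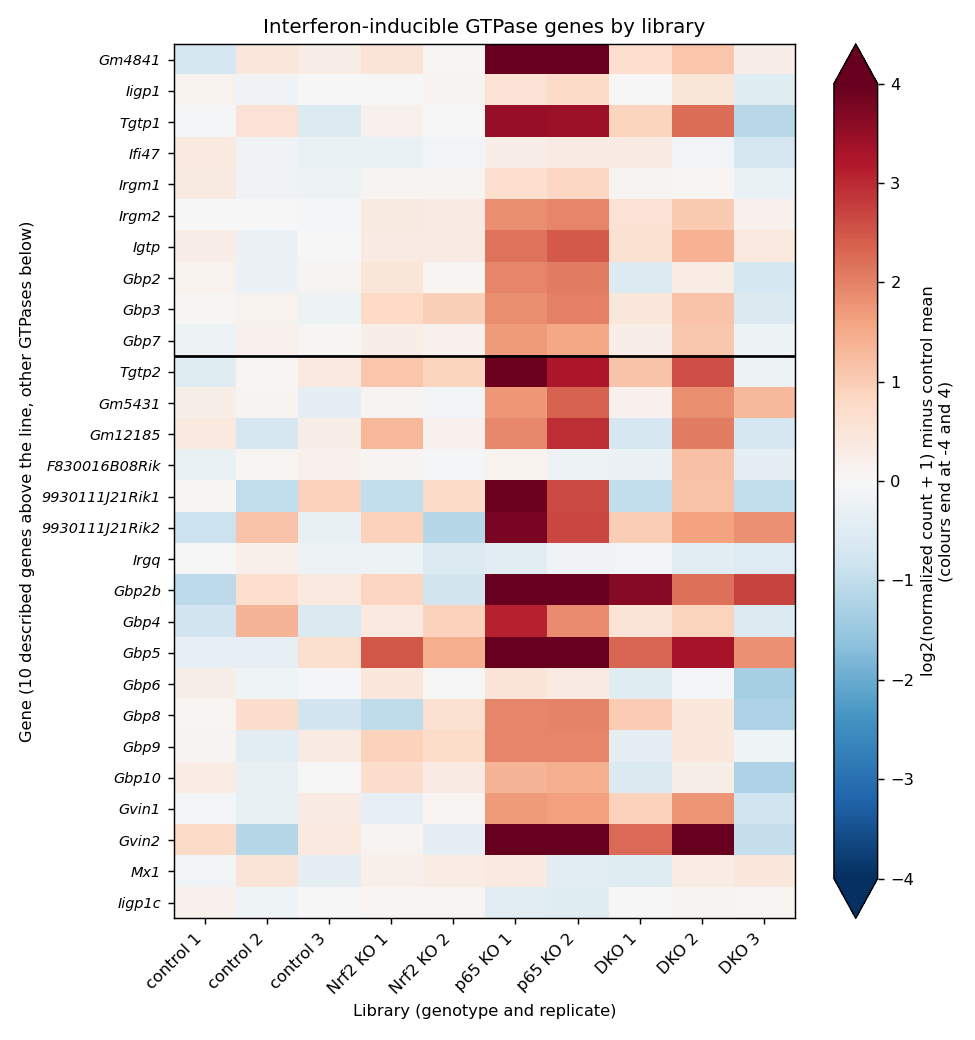
Log2(normalized count + 1) of the 10 GTPase genes (above the line) and of 18 other GTPase genes (below), minus the mean of the 3 control libraries, with 1 column per library and colours that end at -4 and 4. Most GTPases are red in both p65 KO columns, DKO replicate 2 is intermediate, and Iigp1c, Irgq, and Mx1 stay near 0.

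The upstream steps of the interferon response were examined with a list of 49 genes, of which 35 could be tested. Of these, 6 were called higher and 0 lower in p65 KO than in control (5.05% and 1.54% of all genes). The median log2 fold change was 0.57 (0.00 over all genes). Between DKO and p65 KO, 5 were called lower (0.968% of all genes), with a median of -0.29 (0.00 over all genes). The number called lower was 1 without either p65 KO library, 2 without DKO replicate 1 or DKO replicate 3, and 3 without control replicate 3. The list held 8 interferon genes, and others were not looked up. Ifng, Ifnb1, Ifna2, Ifna4, Ifnl2, Ifnl3, and Ifne had 0 counts in all 10 libraries, which allows up to 3 counts per library. Ifnk was at 0 in all except control replicate 3 (2.8). Il27, a cytokine of macrophages, was above 0 in p65 KO replicate 1 (5.08), Nrf2 KO replicate 1, and the 3 DKO libraries, and Il18 and Il15, which induce interferon gamma, were not called (0.09 ± 0.20, adjusted p = 0.798 and 0.78 ± 0.52, adjusted p = 0.329 in edgeR).

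The receptors and kinases were not called between p65 KO and control. Ifngr1, the ligand-binding chain of the interferon gamma receptor, was at 406, 436, and 323 in control, 456 and 514 in Nrf2 KO, 458, 341, and 341 in DKO, and 437 and 432 in p65 KO. Both Nrf2 KO libraries were above all control and p65 KO libraries, and p65 KO overlapped with control and DKO (edgeR log2 fold change 0.16 ± 0.17, adjusted p = 0.557 between p65 KO and control). Ifngr2, its signalling chain, was at 714, 622, and 665 in control, 572 and 587 in Nrf2 KO, 471, 456, and 381 in DKO, and 722 and 879 in p65 KO. All 3 DKO libraries were the lowest of the 10, and it fell between p65 KO and DKO (-0.88 ± 0.13, adjusted p = 0.00928 in edgeR) and between control and DKO (-0.61 ± 0.12, adjusted p = 0.0198), by less than the fold threshold. The type I receptor chains Ifnar1 (-0.09 ± 0.14, adjusted p = 0.708 in edgeR) and Ifnar2 (-0.18 ± 0.12, adjusted p = 0.328) and the shared chain Il10rb (0.17 ± 0.91, adjusted p = 0.919) were not called between p65 KO and control, and Ifnlr1 was near 0. The kinases Jak1 (0.35 ± 0.11, adjusted p = 0.0566 in edgeR), Jak2 (-0.07 ± 0.13, adjusted p = 0.733), and Tyk2 (-0.04 ± 0.13, adjusted p = 0.848) were not called either.

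Irf1 and Irf8, members of the interferon regulatory factor family, were called in p65 KO. Irf1, which binds ISRE sites, was at 619.5, 628, and 819 in control, 584 and 618 in Nrf2 KO, 978, 1108, and 785 in DKO, and 1334 and 1809 in p65 KO. Both p65 KO libraries were above all others, and DKO libraries overlapped with control only in replicate 3. It rose by 1.19 ± 0.18 (edgeR adjusted p = 0.00336), a call lost without p65 KO replicate 2, with -0.72 ± 0.18, adjusted p = 0.0537, between DKO and p65 KO. Irf8, a factor of myeloid cells, rose by 2.19 ± 0.34 (edgeR adjusted p = 0.00369, called under 19 of 19 alternatives), from 32.02, 39.3, and 22.4 in control to 165 and 122 in p65 KO. Irf7, the factor of the type I response, fell between p65 KO and DKO (-1.02 ± 0.25, adjusted p = 0.048 in edgeR), a call that held under 8 of 19 alternatives.

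Among feedback inhibitors, Socs3 was at 235, 352, and 212 in control, 84.03 and 919 in Nrf2 KO, 158, 181, and 270.0 in DKO, and 3963 and 807 in p65 KO. The p65 KO value was carried by replicate 1, and Nrf2 KO replicate 2 was above p65 KO replicate 2. It rose in p65 KO (3.16 ± 0.78, adjusted p = 0.0241 in edgeR) and fell in DKO (-3.56 ± 0.80, adjusted p = 0.0364), and both calls were lost without p65 KO replicate 1 or without any one control library, the second also without any one DKO library. Usp18, which restrains the type I receptor, was at 453, 291, and 332 in control, 675 and 756 in Nrf2 KO, 334, 291, and 259.7 in DKO, and 685 and 563 in p65 KO. It was higher in Nrf2 KO and in p65 KO than in control and DKO, and it fell between p65 KO and DKO (-1.08 ± 0.19, adjusted p = 0.016 in edgeR), a call lost without DKO replicate 3 or either p65 KO library.

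Of further interferon gamma targets, Cd274 (PD-L1), a ligand that dampens T cells, was at 26.5, 36.4, and 27.1 in control, 35.6 and 45.3 in Nrf2 KO, 44.2, 54.98, and 35.5 in DKO, and 156 and 143 in p65 KO. Only p65 KO stood apart, and it rose in p65 KO (2.31 ± 0.30, adjusted p = 0.00177 in edgeR, called under 19 of 19 alternatives) and fell in DKO (-1.73 ± 0.29, adjusted p = 0.015, lost without either p65 KO library). Ciita, the activator of MHC class II genes in antigen-presenting cells, was at 1.1, 0, and 2.8 in control, 2.97 and 1.62 in Nrf2 KO, 8.41, 10.1, and 6.87 in DKO, and 49.8 and 31.2 in p65 KO. It was at or under 3 counts in every control library and at least 13.4-fold higher in p65 KO by the same floor (edgeR adjusted p = 0.00502). The 10 markers of monocytes and dendritic cells, which express Irf8 and Ciita, summed to 70.7 to 151 in control, 57.4 and 130.5 in Nrf2 KO, 246 to 357 in DKO, and 475 and 595 in p65 KO, and their part in these values was not tested. Cxcl9, a chemokine that draws T cells, was not called in p65 KO (0.28 ± 0.30, adjusted p = 0.56 in edgeR) but fell between p65 KO and DKO (-1.53 ± 0.31, adjusted p = 0.0242) and between control and DKO (-1.26 ± 0.28, adjusted p = 0.0293, lost without DKO replicate 1 or 3 or control replicate 1 or 3). Its values were 319, 160.3, and 296 in control, 262 and 322 in Nrf2 KO, 76.8, 136, and 112 in DKO, and 269 and 357 in p65 KO, so that the 3 DKO libraries were the lowest of the 10. The call between DKO and p65 KO was lost without either p65 KO library or without DKO replicate 1.

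Genes that respond mainly to type I interferon moved in both directions in p65 KO. Of 24 tested, 2 were called higher and 4 lower (5.05% and 1.54% of all genes), with a median of 0.15. Named after their values had been seen, those called were Oas2 and Oasl2 (3.51 ± 0.71 and 1.85 ± 0.40) and Oasl1, Rsad2, Cmpk2, and Dhx58 (-1.22 ± 0.23, -1.17 ± 0.27, -1.37 ± 0.33, and -1.05 ± 0.16). Without p65 KO replicate 1, all of these calls except that of Dhx58 were lost. Those of Rsad2, Cmpk2, and Dhx58 were also lost without p65 KO replicate 2 or control replicate 1, and that of Rsad2 without control replicate 2. Between DKO and p65 KO, the log2 fold change was negative for 20 of 24 with a median of -0.51. Of the 24, 4 were called lower (0.968% of all genes), namely Ifit2, Ifit3, Oasl2, and Ifi44. The DKO libraries were below both p65 KO libraries for 12 of 24 (20.1% of all genes). Of these calls, that of Ifi44 held under 19 of 19 alternatives, and those of Ifit2, Ifit3, and Oasl2 under 7, 13, and 15. The difference between the lists was not tested. The 4 most abundant, Bst2, Ifih1, Parp14, and Rigi, were not called between p65 KO and control (-0.05 ± 0.12, adjusted p = 0.805, -0.17 ± 0.10, adjusted p = 0.293, 0.48 ± 0.14, adjusted p = 0.043, and -0.24 ± 0.14, adjusted p = 0.289 in edgeR). Between DKO and control, 0 were called higher and 5 lower (Ifit3, Ifit3b, Rsad2, Cmpk2, and Ifi44, 1.36% and 1.02% of all genes), with a median of -0.17, and between DKO and Nrf2 KO 6 were called lower (0.139% of all genes), with a median of -0.70. Of the 5, Ifit3b and Cmpk2 were lost without control replicate 1 or 2, Ifit3b also without DKO replicate 1 or 3, and Cmpk2 without DKO replicate 2. Of the 6 (Isg15, Ifit1, Ifit3, Ifit3b, Rsad2, and Ifi44), all except Ifit3 were lost without Nrf2 KO replicate 2, and all except Ifit3 and Ifi44 without Nrf2 KO replicate 1. The median over the list was 0.47 and 0.45 above the control mean in Nrf2 KO and -0.17, -0.34, and -0.40 in DKO replicates 1, 2, and 3. In these DKO libraries, which had entered their choice, the median of the 10 GTPases was 0.38, 1.06, and -0.37.

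Genes for proteins that act with the GTPases were mostly not called. Of 19 genes for autophagy proteins that load GTPases onto membranes (Atg5, Atg7, Atg16l1, the LC3 and Gabarap families), ubiquitin factors, and inflammasome parts, 2 were called between p65 KO and control, with a median of 0.03 (6.59% of all genes were called). Both were inflammasome genes of myeloid cells. Nlrp3 was at 0, 0.983, and 0 in control, 0.989 and 1.62 in Nrf2 KO, 1.05, 5.61, and 0 in DKO, and 33.5 and 9.45 in p65 KO (5.56 ± 1.33, adjusted p = 0.0209 in edgeR), and Casp1 at 2.21, 5.9, and 3.74 in control, 8.9 and 0.808 in Nrf2 KO, 9.47, 19.1, and 8.01 in DKO, and 41.6 and 17.01 in p65 KO (2.84 ± 0.85, adjusted p = 0.047). The call of Nlrp3 held under 14 of 18 alternatives and that of Casp1 under 12 of 19. By group means, both genes and the Kupffer cell markers given above were highest in p65 KO. Within DKO, both genes were highest in replicate 2, and the Kupffer cell markers in replicate 1. The part of these cells in the values of the 2 genes was not tested.

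The genes whose log2 values ran most like those of Gm4841 over the 10 libraries, among 10165 genes compared, were Adcy6 (an adenylate cyclase, Pearson's r = 0.973), Cd274 (0.963), Polr1b (a subunit of RNA polymerase I, 0.96), Gpld1 (a phospholipase secreted by the liver, 0.96), and Trim21 (a cytosolic antibody receptor and ubiquitin ligase, 0.96). Adcy6 averaged 642 in control, 598 in Nrf2 KO, 623 in DKO, and 1325 in p65 KO. For the mean of the 10 GTPases they were Utp15 (0.979), Cd274 (0.968), Tns3 (0.965), Dnajc5 (0.963), and Prr3 (0.959). These values rest on the 2 p65 KO libraries that stand apart and are given as a description.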

How the data were processed

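The deposited table holds estimated counts per gene, which the authors made with Salmon 1.10.3 from single-end, stranded, poly-A reads against GRCm39 with GENCODE M33. It is described as normalized, but the values are whole numbers with unequal library totals (33707165 to 49897382), so they were used as counts. Groups came from the labels, with 1 library per mouse, and p-values measure the spread between these mice. Genes with a summed count of 10 or more were tested with edgeR 4.0.16 (quasi-likelihood test, TMM scaling, 1 model of 4 groups, R 4.3.3) and adjusted by the Benjamini-Hochberg method over all 13641 genes. A gene was called at an adjusted p up to 0.05 with a log2 change of 1 or more. DESeq2 1.42.0 and limma 3.58.1 (log2(normalized count + 1)), other scalings and filters, a fit of the compared groups alone, a replicate block, and leaving out each library were alternatives. The scripts were tested on simulated data. Named genes were the 10 members, further GTPases that passed the filter, pathway genes called in p65 KO against control or in DKO against p65 KO (ligands, receptors, kinases, and Irf1 in any case, with 1 gene of the rule not reported here), the 4 most abundant type I genes, partners called in p65 KO, and the 5 genes most like Gm4841 and like the members' mean. The members and lists were chosen with earlier results of these data known. Gbp11, Mx2, and 8 more listed genes were not analysed here.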

Additional observations from a re-analysis of the deposited data

Results flagged for a closer look

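For 4 genes, the effect of losing p65 differed between hepatocytes with and without Nrf2 by the interaction term of edgeR's quasi-likelihood test (Benjamini-Hochberg adjustment over all genes tested). They were the only ones called for this term among 17 other GTPases, 35 pathway genes, 24 type I genes, and 19 partners tested. Over all genes tested, 0.455% were called for the interaction. Gbp9, a guanylate-binding protein, differed by -2.77 ± 0.46 on the log2 scale (SE, adjusted p = 0.0316 in edgeR), with a log2 fold change of 1.93 between p65 KO and control and -0.83 between DKO and Nrf2 KO. This call held under 10 of 18 alternatives and was lost without any one Nrf2 KO or p65 KO library, without control replicate 1 or 2, and without DKO replicate 1. Usp18 differed by -2.08 ± 0.27 (edgeR adjusted p = 0.0106), with 0.80 and -1.28 in the same order, and Ifi44, an interferon-induced gene, by -3.01 ± 0.39 (edgeR adjusted p = 0.0106), with 0.60 and -2.41. Both calls held under 16 of 18 alternatives and were lost without Nrf2 KO replicate 2 or p65 KO replicate 1. Ifit3, an antiviral protein that binds foreign RNA together with Ifit1, differed by -1.77 ± 0.26 (edgeR adjusted p = 0.0221), with -0.19 and -1.96, and this call held under 13 of 18 alternatives, being lost without Nrf2 KO replicate 2, control replicate 1, or either p65 KO library. The 10 described GTPases were left out here because the p65 KO, control, and DKO values that enter their interaction had been used to choose them.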

How the results depend on the processing

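With 2 or 3 mice per group, most counts moved when 1 library was left out, and the median log2 fold change of the 10 GTPases kept its sign in every comparison except DKO vs Nrf2 KO, where it moved from 0.18 to -0.05 without DKO replicate 2. Genes called over the whole table numbered 899 (p65 KO vs control), 243 (DKO vs p65 KO), 325 (DKO vs control), 62 (interaction), 75 (Nrf2 KO vs control), and 59 (DKO vs Nrf2 KO). Leaving out single libraries gave 325 to 954, 70 to 294, 147 to 316, 8 to 119, 18 to 84, and 18 to 81 in that order. It moved the other GTPases called from 9 to between 3 and 10 (p65 KO vs control) and from 2 to between 0 and 4 (DKO vs p65 KO), and the pathway genes called from 5 to between 1 and 4 (DKO vs p65 KO). The median of the 10 GTPases moved from -1.36 to between -1.70 and -1.09 (DKO vs p65 KO), from 0.48 to between 0.03 and 0.78 (DKO vs control), and from -1.68 to between -1.98 and -1.48 (interaction). DESeq2 called 453 (DKO vs p65 KO), 534 (DKO vs control), 249 (interaction), 135 (Nrf2 KO vs control), and 296 genes (DKO vs Nrf2 KO), and 5 other GTPases (DKO vs p65 KO). Library totals alone shifted the median of all genes by 0.177 (p65 KO vs control) and -0.269 (DKO vs p65 KO). They gave 504 genes, 9 pathway genes, and 6 other GTPases between DKO and p65 KO and 118 genes for the interaction, and moved the share called higher from 45.7% to 17.1% (DKO vs p65 KO), from 57.2% to 46.4% (DKO vs control), and from 58.1% to 22.9% (interaction). Without a filter, 112 genes (DKO vs Nrf2 KO), 137 genes (interaction), and 4 other GTPases (DKO vs p65 KO) were called. A fit of the compared groups alone called 18 (DKO vs Nrf2 KO), 215 (DKO vs control), and 105 genes (DKO vs p65 KO), 2 pathway genes, and 0 other GTPases (DKO vs p65 KO). The replicate numbers did not pair the mice (r between -0.232 and 0.113 for libraries of the same number), and with them as a block 37 genes (DKO vs Nrf2 KO), 2 pathway genes (DKO vs p65 KO), 4 other GTPases (p65 KO vs control), and 5 of the 10 GTPases (DKO vs p65 KO) were called. The cause of these changes was not tested. Levels per kilobase are given with the results, and low counts limit Gm4841, Gbp2, and the GTPases near 0 in control.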
